A study of Homo sapiens with 4 samples.

Results

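Molecular chaperones of the cytosol, nucleus and mitochondria were examined in the human hepatocellular carcinoma line PLC/PRF/5 after knockdown of USP22. Members were taken by gene symbol: all DNAJ, HSPA, HSPB, HSP90A and CCT genes with HSPD1, HSPE1, TCP1 and HSF1, and without HSPA5, DNAJB9 and DNAJC3. This gave 63 of the 12153 genes in the deposited table. Each gene was represented by the mRNA accession with the highest summed count, called a row here. The gene symbols alone chose the genes, and the summed count over all 4 libraries chose the row. The symbol rule is wider than its name. HSPA13, DNAJB11 and DNAJC1 encode proteins of the endoplasmic reticulum, HSPB11 is an intraflagellar transport protein, and HSPE1-MOB4 is a readthrough transcript. HSPH1 and CCT3 were not analysed here.

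The control group, named NC in the labels, and the USP22 knockdown group, shUSP22, held 2 libraries each, called replicates 1 and 2. The knockdown was made with lentivirus. Both groups spent 48 h in hypoxia (1% oxygen with 5% carbon dioxide), so every value below is from hypoxic cells. The labels do not say whether the replicates were separate cultures, nor whether the cells were a pool or a clone. The p-values therefore measure the spread between these libraries, which may be technical.

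Chaperones bind unfolded or partly folded proteins and let them reach their native form. HSP70 proteins (HSPA genes) do this in cycles of ATP hydrolysis that J-domain proteins (DNAJ genes) start and nucleotide exchange factors end. HSP90 acts later on kinases and receptors, small heat shock proteins (HSPB genes) hold unfolding proteins, HSP60 with its lid HSP10 folds proteins inside mitochondria, and the ring-shaped CCT complex, also called TRiC, folds actin and tubulin. HSF1 is the transcription factor that induces many of these genes on heat or other proteotoxic stress, through heat shock elements built of inverted GAA units.

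Because HSF1 and the hypoxia-inducible factors act through short DNA motifs, the 250 bases upstream of an annotated start are shown for 6 members that the results turn on. HSPA8 and HSPA4 rose, HSPA2 and HSPA13 fell, and HSPA1A and HSP90AA1, classical heat shock genes, did not pass the test. Sequences are from RefSeq on GRCh38.p14 and run 5′ to 3′ in the direction of transcription. Capitals mark a heat shock element (GAANNTTC or TTCNNGAA, each its own reverse complement; the longer element is GAANNTTC followed by NNGAA, or the reverse complement of that, and contains the shorter ones) or the core bound by hypoxia-inducible factors (ACGTG or its reverse complement CACGT).
HSPA8, chr11:123062137-123062386, minus strand: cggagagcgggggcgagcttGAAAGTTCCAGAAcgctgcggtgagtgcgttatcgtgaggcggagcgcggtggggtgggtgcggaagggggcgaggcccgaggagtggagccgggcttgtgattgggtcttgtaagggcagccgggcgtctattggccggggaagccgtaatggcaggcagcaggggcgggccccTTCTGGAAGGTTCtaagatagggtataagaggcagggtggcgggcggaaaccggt
HSP90AA1, chr14:102087045-102087294, minus strand: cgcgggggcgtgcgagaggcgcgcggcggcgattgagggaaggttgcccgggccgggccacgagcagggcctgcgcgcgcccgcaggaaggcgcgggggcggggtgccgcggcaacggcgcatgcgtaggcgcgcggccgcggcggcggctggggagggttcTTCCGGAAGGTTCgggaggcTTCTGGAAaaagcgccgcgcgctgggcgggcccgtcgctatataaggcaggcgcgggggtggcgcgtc
HSPA1A, chr6:31815293-31815542, plus strand: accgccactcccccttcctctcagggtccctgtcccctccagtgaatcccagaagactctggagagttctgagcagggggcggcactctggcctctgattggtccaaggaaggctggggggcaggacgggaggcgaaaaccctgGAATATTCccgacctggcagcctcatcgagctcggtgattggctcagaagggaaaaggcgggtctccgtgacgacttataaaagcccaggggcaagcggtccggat
HSPA4, chr5:133051763-133052012, plus strand: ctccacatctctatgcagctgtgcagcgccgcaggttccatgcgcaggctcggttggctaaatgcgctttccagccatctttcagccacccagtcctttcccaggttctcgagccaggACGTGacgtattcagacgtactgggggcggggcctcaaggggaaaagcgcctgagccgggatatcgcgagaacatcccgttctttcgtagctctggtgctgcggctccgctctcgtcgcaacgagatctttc
HSPA2, chr14:64540491-64540740, plus strand: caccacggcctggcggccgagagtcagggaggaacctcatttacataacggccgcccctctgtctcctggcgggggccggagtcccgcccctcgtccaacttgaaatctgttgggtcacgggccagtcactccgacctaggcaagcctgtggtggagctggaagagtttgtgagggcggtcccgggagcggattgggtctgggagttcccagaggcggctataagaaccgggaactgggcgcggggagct
HSPA13, chr21:14383147-14383396, minus strand: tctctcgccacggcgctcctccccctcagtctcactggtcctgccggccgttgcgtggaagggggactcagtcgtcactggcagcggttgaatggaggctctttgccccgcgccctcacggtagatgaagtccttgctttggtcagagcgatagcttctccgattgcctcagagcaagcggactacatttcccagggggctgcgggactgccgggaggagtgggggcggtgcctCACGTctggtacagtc

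In the window of HSPA8 the longer heat shock element occurred at 2 places, with first bases 230 and 55 bases before the start. The HSP90AA1 window held 1 such element and a separate short one, and that of HSPA1A held 1 short element. For HSP90AA1 a window with a heat shock element was preferred, so the presence of an element there was part of the choice. For the other genes shown, the first annotated window by position was taken. The windows of HSPA4 and HSPA13 each held 1 hypoxia core and no heat shock element of these letters, and that of HSPA2 held none of the motifs. These matches are descriptions of the letters and not measured binding sites.

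The library totals ranged from 15027209 to 17194929 counts, and levels are given as CPM, that is, scaled to library size after TMM normalization. The targeted gene checked the labels: the USP22 row had 2937 and 2573 CPM in control replicates 1 and 2 and 359.5 and 447 CPM in knockdown replicates 1 and 2, which left 14.6% of the control mean. The hepatocyte markers fixed for the check (7 of 7 with a row) summed to between 10619 and 13386 CPM in control and between 19571 and 30434 CPM in knockdown libraries, and APOB alone made up most of each sum. APOB, AFP and FGB rose, while ALB, APOA1, SERPINA1 and TTR did not pass and had log2 fold changes of −0.18, −0.11, −0.10 and −0.61, so that the median of the 7 was −0.10. Leukocyte markers (1 of 3 with a row, CD68), endothelial markers (3 of 3) and stellate or fibroblast markers (2 of 3) each summed to between 11.4 and 35.6 CPM in every library. Of the endothelial markers PECAM1 rose, while LYVE1 (8 and 13 counts in control, 0 and 1 in knockdown) and VWF (7 and 9 against 0 and 2) were too low to test and lay below both controls. The part of these markers in the results below was not tested.

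Chaperone genes changed in both directions. Most tested subunits of the CCT complex rose, members of the HSP70 family rose or fell, and most J-domain genes did not pass. Of the 56 chaperone genes that passed a filter on low counts, 11 rose, 6 fell and 39 missed the threshold (adjusted p under 0.05 by edgeR's quasi-likelihood test). Over all 12337 tested rows, 8.49% rose and 10.2% fell. With 1 row per gene, as for the members, 9.08% of all tested genes rose and 11.1% fell. The shares among the chaperone genes were 19.6% and 10.7%, so the share that fell was near that of all rows and the share that rose was above it. This difference in share was not tested. The share over all rows depended on the count level. With a filter of 5 CPM in 2 libraries, 14.1% of all rows rose and 15.5% fell, while 11 of 43 chaperone genes rose and 5 fell. The median log2 fold change of the 56 genes was 0.14, against 0.00 over all tested rows. For the 25 tested genes with 1 RefSeq mRNA accession the median was −0.09, and 4 rose (16.0%) and 3 fell (12.0%). For the 31 with 2 or more it was 0.43, and 7 rose (22.6%) and 3 fell (9.68%). The difference between these 2 sets was not tested. Both knockdown libraries lay above both control libraries for 20 of the 56 genes and below them for 18, or 35.7% and 32.1%, against 29.3% and 30.3% of all rows. The 11 genes that rose were CCT2, CCT4, CCT5, CCT6A, TCP1, HSPA4, HSPA8, HSPA14, HSPE1, DNAJC7 and DNAJC17. The 6 that fell were HSPA2, HSPA13, HSPA1L, DNAJB2, DNAJC5 and DNAJC5B. The count that rose was 7 without control replicate 1, where 5.21% of all rows rose, and 17 without knockdown replicate 1, where 10.01% did.

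**Figure D1:**
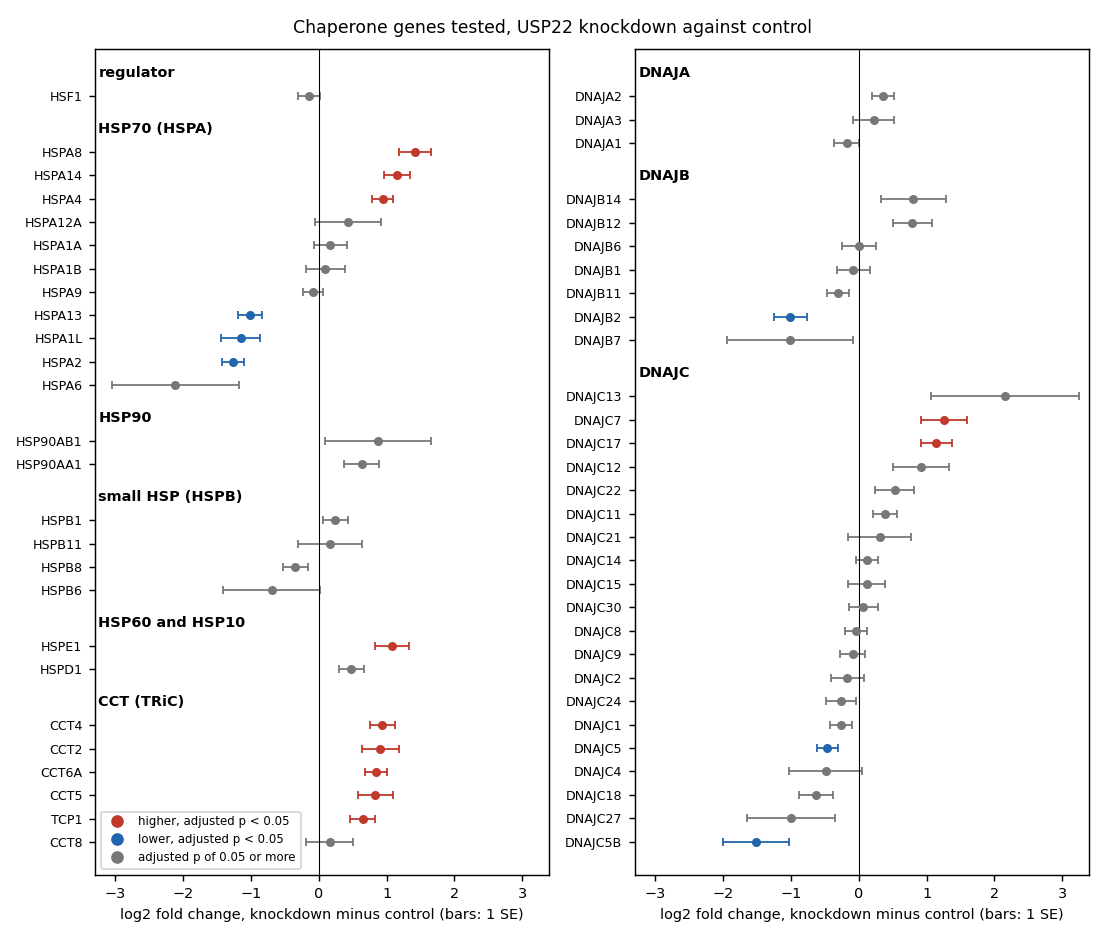
Log2 fold change of each of the 56 tested chaperone genes, knockdown minus control, on the x axis, with bars of 1 standard error and genes grouped by family. Red points rose and blue points fell at an adjusted p under 0.05, and grey points did not pass; 5 of the 6 tested CCT subunits are red, while the HSP70 family holds 3 red and 3 blue points.

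The 7 genes that could not be tested had at most 16 counts in any library. They were CCT7, DNAJB4, DNAJB13, DNAJC28, HSPB7, HSPB9 and HSPE1-MOB4. Many low rows belong to genes with several RefSeq mRNA accessions. The median summed count was 7285 for the 27 members with 1 accession and 728 for the 36 members with more. The low row of such a gene, for example that of HSP90AB1 with 5 to 26 counts per library, says little on the expression of the gene.

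HSF1, the regulator, did not pass the test. Its row had 245.9 and 272.5 CPM in control and 216.7 and 251.2 CPM in knockdown libraries, and the groups overlapped. The log2 fold change was −0.15 ± 0.16 (SE, n = 2 per group) and the edgeR quasi-likelihood adjusted p = 0.587.

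Among the stress-inducible chaperones, which HSF1 is known to drive, HSPA1A, HSPA1B and DNAJB1 differed more between the knockdown replicates than between the groups. HSPA1A and HSPA1B encode the same inducible HSP70 protein, and 69.9% of the 100-base windows of the HSPA1A transcript recur in that of HSPA1B, so reads could have been split between them. HSPA1A had 128.8 and 161.5 CPM in control replicates 1 and 2 and 112.5 and 214.1 CPM in knockdown replicates 1 and 2. HSPA1B had 88.6 and 138.1 CPM in control and 80.7 and 161.5 CPM in knockdown. For both genes the control libraries lay between the knockdown libraries. Their log2 fold changes were 0.17 ± 0.25 and 0.10 ± 0.28, and the edgeR quasi-likelihood adjusted p = 0.695 and 0.858. DNAJB1, the main J-domain partner of inducible HSP70, showed the same order, with 58.1 and 62.5 CPM in control and 41.3 and 72.6 CPM in knockdown (−0.08 ± 0.24, adjusted p = 0.857 in edgeR). HSPA6, a strictly inducible HSP70, was barely detected: the controls held 13 and 34 counts, the knockdown libraries 1 and 10 (adjusted p = 0.138 in edgeR).

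Which knockdown library was used decided the direction for HSPA1A, HSPA1B and DNAJB1. Without knockdown replicate 1 the log2 fold change was 0.60 for HSPA1A, 0.55 for HSPA1B and 0.30 for DNAJB1. Without knockdown replicate 2 it was −0.36, −0.48 and −0.54. HSPA1A and HSPA1B passed without knockdown replicate 1 (adjusted p = 0.0119 and 0.0314 in edgeR). Over all 11 alternatives the adjusted p ranged from 0.0119 to 0.977 for HSPA1A, from 0.0314 to 0.941 for HSPA1B and from 0.122 to 0.989 for DNAJB1.

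**Figure D2:**
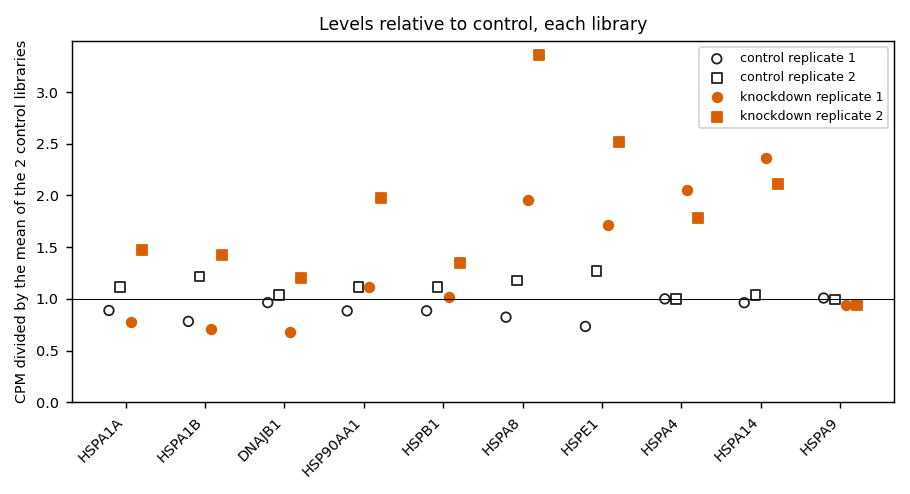
CPM of 10 chaperone genes in each library, divided by the mean of the 2 control libraries (y axis, linear, from 0). Open symbols are control and filled symbols knockdown libraries, circles replicate 1 and squares replicate 2. For HSPA1A, HSPA1B and DNAJB1 the knockdown libraries fall on either side of both controls, while for HSPA8, HSPE1, HSPA4 and HSPA14 both lie above both controls.

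The constitutive HSP70 of the cytosol rose. HSPA8, also called HSC70, had 373.2 and 534.1 CPM in control and 887.8 and 1526 CPM in knockdown replicates 1 and 2. Both knockdown libraries were above both controls, and replicate 2 was the higher in each group. The increase was 2.66-fold (2.26 to 3.13 within 1 SE), a log2 fold change of 1.41 ± 0.24 and the edgeR quasi-likelihood adjusted p = 0.00131. HSPA8 has 17 annotated pseudogenes, and the sources used here do not give how reads matching several places were counted. Its log2 fold change was 0.98 without knockdown replicate 2 and 1.79 without knockdown replicate 1, and it passed under all 11 alternatives.

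HSPA4 and HSPA14, both relatives of HSP70 that work with other chaperones, rose with little spread. HSPA4 belongs to the HSP110 group of nucleotide exchange factors. It had 404 and 404.1 CPM in control and 831 and 721.3 CPM in knockdown libraries, an increase of 0.94 ± 0.15 on the log2 scale (adjusted p = 0.00113 in edgeR). HSPA14 works at the ribosome with the J-domain protein DNAJC2. It had 33.5 and 36.1 CPM in control and 82.0 and 73.3 CPM in knockdown libraries, a 2.23-fold increase (1.16 ± 0.19 on the log2 scale, adjusted p = 0.00119 in edgeR). Both genes have 1 RefSeq mRNA accession, and both passed under all 11 alternatives. DNAJC2 itself did not pass (−0.17 ± 0.25, adjusted p = 0.705 in edgeR), with 23.9 and 38.2 CPM in control and 26.7 and 28.5 CPM in knockdown libraries.

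HSPA2, HSPA13 and HSPA1L fell. HSPA2, a testis-enriched HSP70 also present in tumour cells, had 302.8 and 338.6 CPM in control and 132.4 and 133.9 CPM in knockdown libraries. That was a 2.41-fold decrease (−1.27 ± 0.16 on the log2 scale, adjusted p = 0.000192 in edgeR). HSPA13, an HSP70 of the endoplasmic reticulum, had 511.5 and 525.4 CPM in control and 297.5 and 218 CPM in knockdown libraries (−1.01 ± 0.18, adjusted p = 0.00172 in edgeR). Both passed under all 11 alternatives. HSPA1L, another testis-enriched form, lies head to head with HSPA1A, so 241 of the 250 upstream bases of the pair are shared. It had 16.4 and 18.5 CPM in control and 6.35 and 9.32 CPM in knockdown libraries (−1.15 ± 0.29, adjusted p = 0.0140 in edgeR). The groups of HSPA1L were separate, whereas those of HSPA1A overlapped; the difference between the pair was not tested. Without knockdown replicate 1 the call of HSPA1L was lost (adjusted p = 0.0600 in edgeR, lowest 0.000225 and highest 0.0600 over its alternatives).

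HSPA9, the mitochondrial HSP70 also called mortalin, had the highest CPM of the HSP70 family rows in control cells and did not pass. It had 1532 and 1509 CPM in control and 1429 and 1436 CPM in knockdown libraries. The log2 fold change was −0.09 ± 0.14 (adjusted p = 0.733 in edgeR). HSPA12A, a distant relative, had a mean of 2.19 CPM in control cells and did not pass (0.43 ± 0.48, adjusted p = 0.591 in edgeR).

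**Figure D3:**
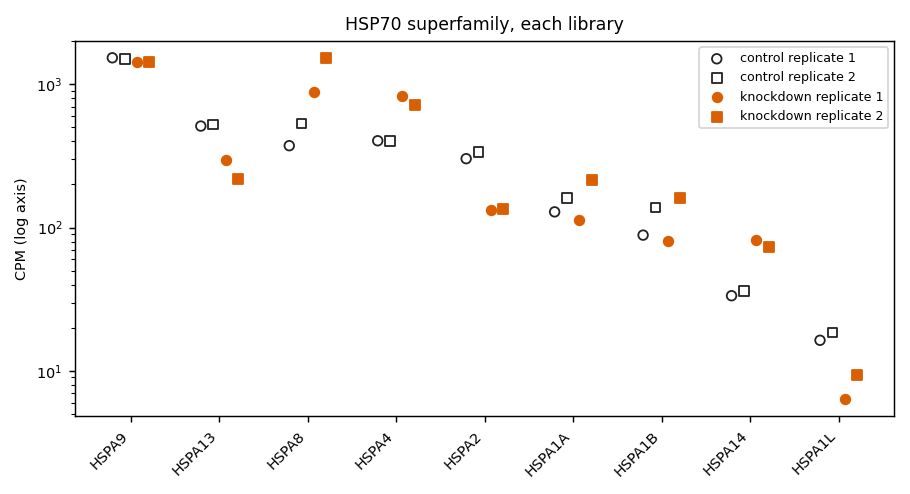
CPM (log axis) of 9 HSP70 superfamily genes in each of the 4 libraries. Open symbols are control and filled symbols knockdown libraries, circles replicate 1 and squares replicate 2. HSPA8, HSPA4 and HSPA14 are higher and HSPA13, HSPA2 and HSPA1L lower in both knockdown libraries, and HSPA9 lies between 1429 and 1532 CPM throughout.

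On a scale of CPM per kilobase of transcript, which allows levels of different genes to be set beside each other, the order of the HSP70 rows differed between the groups. In control cells HSPA9 had 321.7, HSPA8 184.2, HSPA13 130.1, HSPA2 115.9, HSPA4 83.7, HSPA1A 58.4 and HSPA1B 44.97 CPM per kilobase. In knockdown cells HSPA8 had 489.9, HSPA9 303.1, HSPA4 160.9, HSPA1A 65.8, HSPA13 64.7, HSPA2 48.1 and HSPA1B 48.0 CPM per kilobase. In knockdown cells HSPA1A was level with HSPA13, and HSPA1B with HSPA2. HSPA8 was thus below HSPA9 in both control libraries (151.5 and 216.8 against 324.1 and 319.2) and above it in both knockdown libraries (360.5 and 619.4 against 302.4 and 303.8). HSPA8 and HSPA2 have 2 accessions each, so their levels may be understated. HSPB1, with 466.5 in control and 551.4 in knockdown cells, had the highest row per kilobase of the 60 members with a transcript length in both groups. Its 4 libraries ranged from 412.6 to 629.7 CPM per kilobase. HSPB1 has 1 accession, while rows of genes with several, such as HSP90AB1 with 6, may be understated. The rank is thus one of rows and not of genes.

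Most tested subunits of the CCT complex rose. Of the 6 that could be tested, CCT2, CCT4, CCT5, CCT6A and TCP1 (the alpha subunit) rose, by 1.56- to 1.92-fold, and CCT8 did not pass. The median log2 fold change of the 6 was 0.84. Over all rows 8.49% rose and 10.2% fell. CCT6A had 106.2 and 108.9 CPM in control and 181.7 and 203.1 CPM in knockdown libraries (0.84 ± 0.17 on the log2 scale, adjusted p = 0.00358 in edgeR). CCT4 had 43.0 and 40.1 CPM in control and 77.8 and 81.5 CPM in knockdown libraries (0.94 ± 0.19, adjusted p = 0.00366 in edgeR). In these subunits the gap between the groups was wider than that between replicates. TCP1 had 74.2 and 87.8 CPM in control and 114.3 and 139 CPM in knockdown libraries (0.65 ± 0.18, adjusted p = 0.0265 in edgeR). The row of CCT2 had 13.8 and 21.3 CPM in control and 26.6 and 39.3 CPM in knockdown libraries (0.91 ± 0.28, adjusted p = 0.0358 in edgeR). CCT5 had 10.4 and 13.7 CPM in control and 21.9 and 20.8 CPM in knockdown libraries (0.83 ± 0.26, adjusted p = 0.0390 in edgeR).

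Each of these 5 subunits was higher in both knockdown libraries than in both controls. CCT8, with 5.68 and 4.33 CPM in control and 5.22 and 5.94 CPM in knockdown libraries, overlapped (0.16 ± 0.35, adjusted p = 0.809 in edgeR). Its row and that of CCT7, which had 3 to 9 counts per library, are low rows of genes with 4 accessions each. The 5 subunits that rose also have several accessions: CCT5 has 5, and CCT2, CCT4, CCT6A and TCP1 have 2 each. Their values thus describe the row used and not the whole gene. Summed over the 7 rows, the CCT subunits had 253.4 and 276.7 CPM in control and 428.1 and 490.2 CPM in knockdown libraries. The calls of CCT4 and CCT6A held under all 11 alternatives. Without control replicate 1 the adjusted p was 0.224 for TCP1, 0.240 for CCT2 and 0.266 for CCT5 in edgeR. Without knockdown replicate 2 it was 0.0849 for TCP1 and 0.166 for CCT2. Over the alternatives the adjusted p ranged from 0.000316 to 0.224 for TCP1, from 0.000206 to 0.240 for CCT2 and from 0.00496 to 0.266 for CCT5. Of the exon bases of CCT5, 30.1% overlap a gene on the opposite strand, whose reads these libraries do not set apart.

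**Figure D4:**
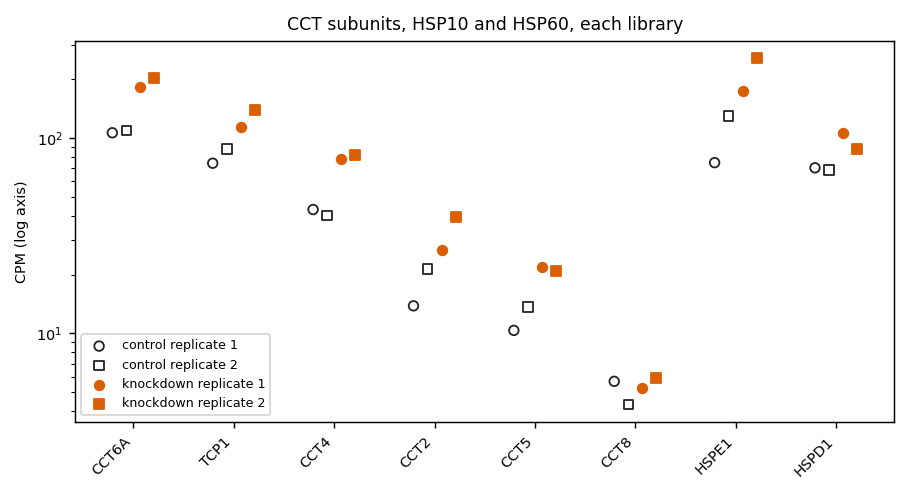
CPM (log axis) of 6 CCT subunits and of HSPE1 and HSPD1 in each of the 4 libraries. Open symbols are control and filled symbols knockdown libraries, circles replicate 1 and squares replicate 2. Both knockdown libraries lie above both controls for every gene shown except CCT8, whose groups overlap.

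Genes that serve the CCT complex or tubulin folding were counted from a list of 16 prefoldin subunits, phosducin-like proteins, tubulin cofactors and related genes. Of the 14 that could be tested, 1 rose and 13 did not pass; their median log2 fold change was 0.18. The share of 7.14% that rose was near the 8.49% of all rows. The gene that rose was TBCD, a tubulin-folding cofactor, with 89.1 and 128.5 CPM in control and 203.1 and 198.5 CPM in knockdown libraries (0.88 ± 0.19, adjusted p = 0.00631 in edgeR). Without control replicate 1 its call was lost (adjusted p = 0.0997 in edgeR, the highest over its alternatives, with a lowest of 2.22e-08). Prefoldin itself, which hands actin and tubulin to CCT, had 5 tested subunits among those that did not pass. Their log2 fold changes ranged from 0.16 for PFDN6 to 0.51 for PFDN4, and the groups of PFDN2 and PFDN6 overlapped. PFDN4, with the largest change of the 5, had 47.1 ± 1.05 CPM (SD, n = 2) in control and 67.1 ± 3.75 CPM in knockdown cells.

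In mitochondria, HSPE1 rose and its partner HSPD1 did not pass in edgeR's quasi-likelihood test. In the authors' deposited table HSPD1 had a q-value of 0.0132 and HSPE1 a q-value of 0.0835. Which gene of the pair passed therefore depended on the test. HSPE1, the HSP10 lid, had 74.7 and 129.1 CPM in control and 174.6 and 256.1 CPM in knockdown replicates 1 and 2. The groups did not overlap, and replicate 2 was the higher in each. The increase was 2.11-fold (1.08 ± 0.25 on the log2 scale, adjusted p = 0.00869 in edgeR), and the call held under all 11 alternatives, with a highest adjusted p of 0.0496 without control replicate 1. HSPD1, the HSP60 barrel, had 70.3 and 68.7 CPM in control and 106.2 and 87.3 CPM in knockdown libraries. Both knockdown values were above both controls, with a log2 fold change of 0.48 ± 0.18 and an adjusted p = 0.0872 in edgeR. Without knockdown replicate 2 HSPD1 passed (0.62, adjusted p = 0.0263 in edgeR, lowest 0.0162 and highest 0.287 over its alternatives). The genes lie head to head and share 104 bases of their upstream windows, and the difference between their fold changes was not tested. HSPE1 has 26 and HSPD1 17 annotated pseudogenes.

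Of the mitochondrial quality control genes listed beside the chaperones, 14 of 16 could be tested, of which 2 rose and 2 fell, or 14.3% each way against 8.49% and 10.2% of all rows. TRAP1, the mitochondrial HSP90, had 34.1 and 36.3 CPM in control and 52.4 and 62.1 CPM in knockdown libraries (0.70 ± 0.20, adjusted p = 0.0262 in edgeR). TIMM17A, a subunit of the inner membrane import channel, had 165.7 and 161.1 CPM in control and 227.2 and 239.7 CPM in knockdown libraries (0.52 ± 0.16, adjusted p = 0.0378 in edgeR). GRPEL1, the exchange factor of HSPA9, had 190.4 and 206.5 CPM in control and 127.3 and 141.4 CPM in knockdown libraries (−0.56 ± 0.16, adjusted p = 0.0295 in edgeR). The protease gene YME1L1 had 5.998 and 5.565 CPM in control and 2.45 and 2.68 CPM in knockdown libraries (−1.17 ± 0.38, adjusted p = 0.0469 in edgeR). All 4 had separate groups. All 4 calls were lost without control replicate 1 and without control replicate 2, and at least 1 further library decided each. The call of YME1L1 was lost in 7 of 11 alternatives: when any 1 of the 4 libraries was left out, and also without the filter (adjusted p = 0.0542 in edgeR), with DESeq2 (0.0728) and with limma-voom (0.0504). The adjusted p ranged over the alternatives from 0.00123 to 0.162 for TRAP1, from 0.00207 to 0.196 for TIMM17A, from 0.000796 to 0.222 for GRPEL1 and from 0.0195 to 0.136 for YME1L1.

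HSP90 genes of the cytosol did not pass. HSP90AA1, the inducible form, had 27.5 and 34.7 CPM in control and 34.8 and 61.3 CPM in knockdown libraries, so that knockdown replicate 1 was level with control replicate 2. The log2 fold change was 0.63 ± 0.26 (adjusted p = 0.118 in edgeR). Without knockdown replicate 1 it was 1.02 (adjusted p = 0.000371 in edgeR), and without knockdown replicate 2 it was 0.17 (adjusted p = 0.762 in edgeR), the lowest and highest adjusted p over its alternatives. HSP90AB1, the constitutive form, has 6 accessions and had 0.316 and 1.05 CPM in control and 0.992 and 1.51 CPM in knockdown libraries (adjusted p = 0.495 in edgeR). HSP90AA1 has 2 accessions, so its row too may understate the level of the gene.

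Cofactors of HSP70 and HSP90 were counted from a list of 33 genes, called cochaperone genes below, of which 31 could be tested. The list also held HSF2 and HSF4, which are heat shock transcription factors, and the heat shock factor binding proteins HSBP1 and HSBP1L1. Of the 31 tested, 2 rose and 29 did not pass, and the median log2 fold change was 0.29. The share that rose was 6.45%, against 8.49% of all rows. Both that rose are members of the NudC family of HSP90 cochaperones. Of the same family, NUDCD1 (1.00 ± 0.33, adjusted p = 0.0506 in edgeR) and NUDCD2 (−0.08 ± 0.37, adjusted p = 0.910 in edgeR) did not pass. NUDC had 229.6 and 260.9 CPM in control and 401.4 and 493.1 CPM in knockdown libraries (0.87 ± 0.17, adjusted p = 0.00319 in edgeR). NUDCD3 had 136.3 and 116.9 CPM in control and 170.8 and 196.8 CPM in knockdown libraries (0.54 ± 0.17, adjusted p = 0.0436 in edgeR). NUDC passed under all 11 alternatives, while NUDCD3 was lost without control replicate 1, control replicate 2 or knockdown replicate 2 (adjusted p = 0.0972, 0.280 and 0.126 in edgeR, over a range of 0.00172 to 0.280). The count that rose was 1 without control replicate 1 or 2, where 5.21% and 6.46% of all rows rose, and 4 without knockdown replicate 1, where 10.01% did. BAG3, an HSF1-driven exchange factor, did not pass, with means of 204.2 ± 29.6 CPM (SD, n = 2) in control and 183.5 ± 37.9 CPM in knockdown cells.

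Most J-domain genes did not pass. Of the 30 tested DNAJ genes, 2 rose, 3 fell and 25 did not pass; the median log2 fold change was −0.02. The share that rose was 6.67%, below the 8.49% of all rows, and the share that fell was near that of all rows; neither difference was tested. DNAJC17, a nuclear J-domain protein linked to splicing, had 16.9 and 20.8 CPM in control and 38.02 and 45.01 CPM in knockdown libraries (1.14 ± 0.23, adjusted p = 0.00391 in edgeR). DNAJC7, which binds both HSP70 and HSP90, had 3.91 and 6.31 CPM in control and 10.4 and 14.1 CPM in knockdown libraries (1.26 ± 0.34, adjusted p = 0.0198 in edgeR). Both genes had knockdown values above both controls. Of the exon bases of DNAJC17, 26.1% overlap genes on the opposite strand. DNAJC17 passed under all 11 alternatives. DNAJC7 was lost without control replicate 1 (adjusted p = 0.111 in edgeR) and without knockdown replicate 2 (0.0697), over a range of 0.000428 to 0.111.

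DNAJB2, DNAJC5 and DNAJC5B fell. DNAJB2, which sends HSP70 clients to the proteasome, had 39.7 and 31.1 CPM in control and 15.3 and 19.9 CPM in knockdown libraries. That was a 2.01-fold decrease (−1.01 ± 0.24 on the log2 scale, adjusted p = 0.0112 in edgeR), lost without control replicate 1 (adjusted p = 0.0955 in edgeR, over a range of 6.23e-05 to 0.0955). DNAJC5, the cysteine string protein of secretory vesicles, had 568.8 and 627.5 CPM in control and 415.5 and 450.2 CPM in knockdown libraries (−0.47 ± 0.15, adjusted p = 0.0499 in edgeR). Its paralog DNAJC5B had 5.56 and 4.39 CPM in control and 2.51 and 0.990 CPM in knockdown libraries (−1.51 ± 0.49, adjusted p = 0.0459 in edgeR). In all 3 genes both knockdown libraries were below both controls. The calls of the DNAJC5 pair lay at the threshold. That of DNAJC5 was lost in 5 of 11 alternatives, among them without control replicate 1, control replicate 2 or knockdown replicate 1 (adjusted p = 0.144, 0.329 and 0.117 in edgeR, over a range of 0.00249 to 0.329). That of DNAJC5B was lost in 3 of 10, among them without control replicate 1 or knockdown replicate 2 (adjusted p = 0.0994 and 0.258 in edgeR, over a range of 0.00269 to 0.258). Its log2 fold change was −2.28 without knockdown replicate 1.

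The J-domain partners of cytosolic HSP70 in the DNAJA group did not pass. DNAJA1 had 63.0 and 69.2 CPM in control and 56.4 and 60.4 CPM in knockdown libraries (−0.18 ± 0.18, adjusted p = 0.557 in edgeR). DNAJA2 had 171 and 163.9 CPM in control and 206.1 and 222 CPM in knockdown libraries (0.35 ± 0.16, adjusted p = 0.147 in edgeR). Their groups were separate, in opposite directions. In the authors' deposited table DNAJA2 had a q-value of 0.0221. The mitochondrial DNAJA3 overlapped. Among the other DNAJ genes that did not pass, log2 fold changes ranged from −1.02 for DNAJB7 to 2.15 for DNAJC13, both under 1 CPM in every library. Of the 7 members listed as resident in the endoplasmic reticulum, HSPA13 fell and 6 did not pass; the median log2 fold change was −0.27.

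Small heat shock proteins did not pass. HSPB1, also called HSP27, had 375 and 473 CPM in control and 430.1 and 572.4 CPM in knockdown libraries, and the groups overlapped (0.24 ± 0.18, adjusted p = 0.401 in edgeR). Without knockdown replicate 1 HSPB1 passed (0.47, adjusted p = 0.0298 in edgeR, over a range of 0.0298 to 0.951). HSPB8, a partner of BAG3, had 63.3 and 66.8 CPM in control and 48.6 and 53.8 CPM in knockdown libraries (−0.35 ± 0.19, adjusted p = 0.226 in edgeR). HSPB6 and HSPB11 lay under 3 CPM in every library.

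Genes taken as the classical HSF1 program were counted from a list of 31, of which 28 had a row and 16 of these are chaperone members. Of the 27 that could be tested, 4 rose, 1 fell and 22 did not pass; the median log2 fold change was 0.10. The shares were 14.8% and 3.70%, against 8.49% and 10.2% of all rows, and the differences were not tested. Those that rose were HSPA8, HSPE1, CCT2 and TCP1. The share that fell rests on HSPA1L alone, the testis-enriched form. All of these genes are described above.

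Heat shock elements upstream of the start occurred in genes that rose, fell or did not pass. The search used the 250 upstream bases, and 55 of the 63 members had a window. The longer element was found in 6 of the 55 genes (10.9%), against 0.557% of all 27305 genes with a window. The genes were HSPA8, which rose, and DNAJB6, HSP90AA1, HSP90AB1, HSPA6 and HSPD1, which did not pass. The shorter element was found in 19 of the 55 (34.5%), against 13.96% of all genes. It occurred in 3 of 9 genes that rose (CCT2, HSPA8 and TCP1), in 1 of 5 that fell (HSPA1L) and in 14 of 34 that did not pass. The windows of HSPA1L and HSPA1A share 241 of their 250 bases. The element of the HSPA1A window lies in the shared part, so it was counted both for HSPA1L, which fell, and for HSPA1A, which did not pass. The hypoxia core occurred in 16 of the 55 (29.1%), against 21.7% of all genes. It was found in 2 of 9 genes that rose (HSPA4 and HSPE1) and in 2 of 5 that fell (HSPA13 and DNAJC5). It was also found in 10 of 34 that did not pass and in 2 of 7 that were not tested. A gene was counted where any of its annotated windows held the motif.

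**Figure D5:**
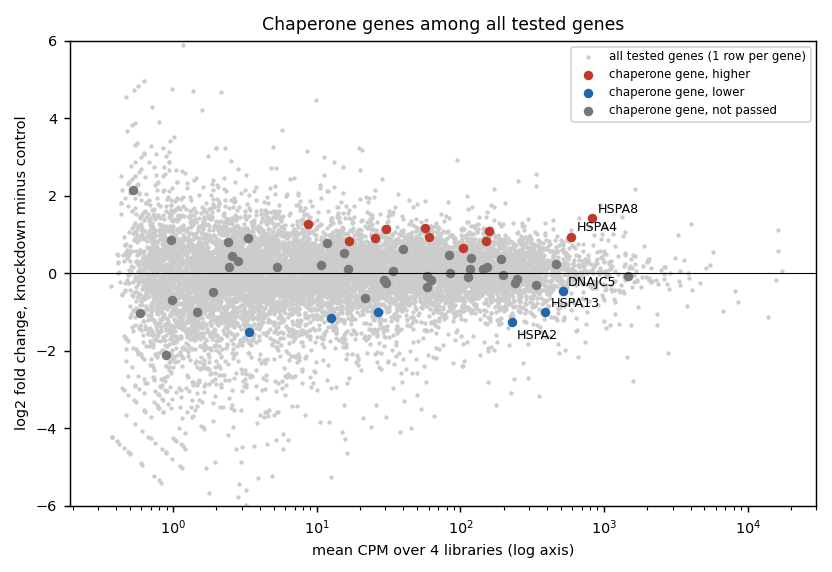
Log2 fold change, knockdown minus control (y axis), against mean CPM over the 4 libraries (x axis, log scale). Grey points are all tested genes with 1 row per gene, of which 30 lie beyond a log2 fold change of 6 and are not shown, and coloured points are the 56 tested chaperone genes. HSPA8 and HSPA4 are the most abundant chaperone genes that rose, and DNAJC5, HSPA13 and HSPA2 the most abundant that fell.

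In the authors' deposited table, 14 of the 63 chaperone genes had a q-value under 0.05 and a higher level in knockdown, and 6 a lower level, against 10.7% and 11.4% of all rows. Of the 17 genes called here, 16 were among them with the same sign. The exception was HSPE1, with a q-value of 0.0835 and a log2 fold change of 1.10 in the authors' deposited table.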

How the data were processed

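The authors deposited raw counts for 4 libraries, 1 row per RefSeq mRNA accession (14540 rows), and beside them their own q-value, p-value and log2 fold change. HISAT2 2.1.0, HTSeq, bcl2fastq and the build hg19 are named in the submitters' processing notes. The sources used here do not give the counting rule or the test behind the deposited p-values. Per the labels' protocols, mRNA was isolated and libraries were prepared with the NEBNext Ultra RNA kit, in which strand is not marked.

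The members, gene lists and tests were chosen with earlier results of these data known. Rows were kept by filterByExpr (minimum count 10), which removed 2203 and left 12337. Knockdown minus control was tested with edgeR 4.0.16 (TMM, glmQLFit, glmQLFTest, R 4.3.3) without covariates, and p-values were adjusted by Benjamini-Hochberg over all tested rows. The threshold was 0.05. The standard error is the log2 fold change divided by the square root of F. The code was tested on simulated data. Alternatives were DESeq2 size factors, 2 other filters, rows summed per gene, DESeq2 1.42.0, limma 3.58.1 (voom), the replicate block and leaving out each library.

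Named were 16 fixed genes (HSPH1, without a row, among them), all other members past the threshold, and the 2 largest changes per direction of each list. Other genes named were chosen after their values were seen. Accession numbers and promoters came from RefSeq (GRCh38.p14), and transcript lengths, overlaps and pseudogenes from GENCODE 29. Members without a promoter sequence numbered 8.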

Additional observations from a re-analysis of the deposited data

How the results depend on the processing

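Leaving out 1 library at a time gave 7 to 17 chaperone genes higher and 4 to 6 lower (5.21% to 10.01% and 7.73% to 9.69% of all rows), a median log2 fold change of −0.013 to 0.21, and 1 to 4 cochaperone genes higher and 0 to 1 lower. The median of −0.013, a change of sign from 0.14, was that without knockdown replicate 2; the cause was not tested. Such fits assume that the lone library of an arm varies like the other group. The cochaperone count that rose, 2 here, was 4 with DESeq2 size factors, 4 with a filter of 5 CPM in 2 libraries and 4 with rows summed per gene. In the main fit NUDCD1 and TOMM70 lay just over the threshold (adjusted p = 0.0506 for each in edgeR). The cause of the change in this count was not tested. With the replicate number as a block, 16 chaperone genes were higher and 7 lower (13.6% and 15.1% of all rows), and 6 cochaperone genes were higher and 1 lower. HSP90AA1 and HSPD1 passed with the block (adjusted p = 0.0130 and 0.0162 in edgeR). The deviations of same-numbered libraries correlated with r = 0.112 across rows, which are not independent, and the labels do not say that a number marks a shared batch. With DESeq2 11 were higher and 5 lower (8.69% and 9.79% of all rows), and with limma-voom 11 and 6 (8.42% and 10.1%). The call of DNAJC5 was lost with DESeq2 size factors (adjusted p = 0.0545 in edgeR) and without the filter (0.0677), and that of DNAJC5B with DESeq2 (0.0554). No named gene that passed changed sign under any of these alternatives.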

Other observations

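In 12 of the 56 tested chaperone genes replicate 2 was over 1.2 times replicate 1 in both groups: CCT2, DNAJB6, DNAJC7, DNAJC22, HSPA1A, HSPA1B, HSPA6, HSPA8, HSPE1, HSP90AA1, HSP90AB1 and HSPB1. That is 21.4% of them, against 10.4% of all 12337 tested rows. The count was made after the values were seen, and the difference in share was not tested. For HSPA8 the ratio was 1.43 in control and 1.72 in knockdown, for HSPA1B 1.56 and 2.00, and for HSPE1 1.73 and 1.47. For HSPA4 it was 1.00 and 0.868, and for HSPA9 0.985 and 1.00.

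Several members had other rows with fewer counts, whose log2 fold change could differ in sign from that of the row used. Among genes that rose, the other row of CCT2 (NM_001198842.1) had −0.54 ± 0.75, where the controls held 67 and 8 counts and the knockdown libraries 26 each. The other row of DNAJC7 (NM_001144766.2) had −0.65 ± 0.80, on 10 and 18 control counts against 7 and 11 after knockdown. Both overlapped and did not pass in edgeR's quasi-likelihood test (adjusted p = 0.673 and 0.632). DNAJB6 is made as a long nuclear and a short cytosolic form. Its row NM_058246.3 had means of 83.9 ± 24.4 CPM for control and 84.1 ± 27.8 CPM for knockdown, and its row NM_005494.2 had 37.6 ± 8.95 and 26.95 ± 0.343 CPM (SD, n = 2). DNAJC12, a cochaperone of the aromatic amino acid hydroxylases, had 2.31 ± 0.319 and 4.37 ± 0.00282 CPM in the row used and 1.59 ± 0.374 and 0.792 ± 0.279 CPM in row NM_201262.1. None of these 4 rows of DNAJB6 and DNAJC12 passed in edgeR's quasi-likelihood test (adjusted p = 0.993, 0.172, 0.146 and 0.349).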
